A study of Drosophila melanogaster with 2 samples.

Results

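Of the 5802 conservative peaks of the CG17328 fusion on the chromosome arms of Drosophila melanogaster, 991 (17.1%) had their summit inside an intron, more than 2000 and at most 10000 bp from the nearest annotated start site of any gene. These intronic peaks were chosen by position alone, with no use of their height: the summit lay within an annotated transcript, in no exon of any transcript, and in that range of distances. They were 46.4% of the 2138 conservative peaks in introns more than 500 bp from a start site. The 838 intronic peaks more than 500 and at most 2000 bp from one (nearer intronic peaks) and the 309 beyond 10000 bp (deep intronic peaks) were the classes on either side. The data were chromatin immunoprecipitation with sequencing (ChIP-seq) from 1 group of embryos of the strain CG17328-GFP, aged 0 to 24 h, in 2 biological replicates from separate biosamples of 1 donor line. All embryos carried an insertion that expresses CG17328 joined to enhanced green fluorescent protein, and the fusion was pulled down with an anti-GFP antibody. Embryos were used whole and over the whole age range, so a site bound strongly in few cells and one bound weakly in many cannot be told apart. No group without the fusion was analysed here, and the lists carry no read counts, so the depth is unknown.

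CG17328 encodes a protein of the C2H2 zinc-finger class, whose fingers read DNA, with a zinc-finger-associated domain at its amino end as in many insect proteins of this class. Introns of long fly genes hold many enhancers, short stretches of DNA to which transcription factors bind and which set where and when a start site fires. Introns also hold insulator sites, bound by architectural proteins such as CTCF and Su(Hw), and alternative promoters.

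The DNA under the highest intronic summits is shown because its base composition differed from that of uncalled intronic places. Each line is the summit base with 50 bp on each side for 1 of the 8 highest members on X and 3L that were called in both replicates. It is read on the plus strand of dm6 from RefSeq's copy of that assembly, with capitals marking every unbroken run of at least 8 A or T bases.
Tlk, chrX:3742168-3742268: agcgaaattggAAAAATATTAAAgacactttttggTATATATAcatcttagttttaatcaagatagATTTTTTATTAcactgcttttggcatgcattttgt
CG32486, chr3L:3060760-3060860: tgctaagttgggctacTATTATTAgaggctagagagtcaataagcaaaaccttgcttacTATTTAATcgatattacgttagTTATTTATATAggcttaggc
Raf, chrX:2297676-2297776: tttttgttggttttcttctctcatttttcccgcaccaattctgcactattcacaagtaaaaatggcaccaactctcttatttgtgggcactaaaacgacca
JIL-1, chr3L:11084728-11084828: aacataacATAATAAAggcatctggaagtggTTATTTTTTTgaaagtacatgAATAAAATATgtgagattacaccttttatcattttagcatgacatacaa
Gug, chr3L:8458286-8458386: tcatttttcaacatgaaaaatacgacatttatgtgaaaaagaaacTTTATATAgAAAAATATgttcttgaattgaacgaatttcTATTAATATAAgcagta
Hr4, chrX:1947700-1947800: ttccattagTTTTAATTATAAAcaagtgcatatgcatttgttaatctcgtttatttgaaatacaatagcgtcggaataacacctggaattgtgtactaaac
Raf, chrX:2300638-2300738: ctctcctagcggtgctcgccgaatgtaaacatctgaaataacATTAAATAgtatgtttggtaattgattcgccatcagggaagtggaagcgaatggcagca
aos, chr3L:16480528-16480628: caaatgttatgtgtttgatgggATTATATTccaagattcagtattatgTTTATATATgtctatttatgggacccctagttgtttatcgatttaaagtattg
Of these 8 windows, the one at Tlk held 31 bases in such runs and had a G+C content of 25.7%, and the one at Gug had 21.8%. Both windows in Raf were richer in G+C, at 38.6% and 43.6%, and the one at 38.6% held no such run. For contrast, the window of equal length centred 300 bp to the right of the Tlk summit had a G+C content of 48.5%, and its longest such run had 9 bases.
Tlk flank, chrX:3742468-3742568: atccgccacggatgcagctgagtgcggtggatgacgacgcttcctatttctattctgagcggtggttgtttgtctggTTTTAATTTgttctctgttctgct

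The 25 highest members called in both replicates had pooled signals from 389 to 1159 and are described by the roles of their host genes. The highest of all was in the intron after exon 1 of Tlk, the Tousled-like kinase that acts in chromatin assembly, at chrX:3742076-3742357 and 2321 bp from a Tlk start site. Its pooled signal, the authors' peak height from both samples, was 1159, at rank 24 of all conservative peaks on the arms. Its own-list signal was 515 in replicate 1 and 661 in replicate 2. Raf, the kinase at the head of the MAP kinase cascade, held 6 members, all in 1 intron, of which 2 were among the 25. The member at chrX:2297580-2297833 had a signal of 309 in replicate 1 and 373 in replicate 2, and the one at chrX:2300575-2300814 had 274 and 319. JIL-1, the histone H3 kinase of open chromatin, had 297 in replicate 1 and 376 in replicate 2 at chr3L:11084676-11084895. Gug, which encodes the Atrophin corepressor, had 273 and 390 at chr3L:8458216-8458445. Replicate 2 was the higher of the pair in all of these.

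Both steroid response receptors Hr3 and Hr4, nuclear receptors of the ecdysone cascade, were hosts in this group. The Hr4 member at chrX:1947621-1947865 had a signal of 303 in replicate 1 and 322 in replicate 2. The Hr3 member had 294 and 390, and it also lay within the annotated genes CG12912 and CG46321. The secreted EGF receptor inhibitor argos (aos) had 251 in replicate 1 and 341 in replicate 2 at chr3L:16480459-16480698, a place also within CG33158. The Ets repressor Yan (aop), which acts downstream of the same receptor, had 185 and 209 at chr2L:2163581-2163769. The window of aop was among the exceptions in base composition, at 48.5% G+C against 37.6% in its flanks. The remaining hosts with known roles were Pli, a ubiquitin ligase of the Toll pathway, eff, a ubiquitin-conjugating enzyme, upSET, a chromatin regulator, the kinases Pak3 and msn, the semaphorin Sema1a, the transcription factor grh, the adhesion protein kirre and the tyrosine phosphatase Ptp61F. CG12769, CG32486, babos, CG13894, CG32264, CG34417 and CG9328 completed them. Replicate 2 was higher than replicate 1 in 24 of the 25, the exception being babos with 283 in replicate 1 and 235 in replicate 2. Of the 25, 20 lay downstream of the nearest start site, 22 were nearest to a start site of their own host, and 23 had a lower G+C content at the summit than in the flanks.

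The members were called about as often in both replicates as other peaks. Each sample's own thresholded list, made by the authors from that sample alone, overlapped 603 members (60.8%) in replicate 1 and 661 (66.7%) in replicate 2. Both lists overlapped 499 members (50.4%, Wilson 95% interval 47.2 to 53.5%), where the share over all conservative peaks on the arms was 49.8%. The share was 50.1% (46.7 to 53.5%) for the nearer intronic peaks, with an odds ratio of 1.01 (Fisher's exact test, adjusted p = 1.0), and 45.6% (40.2 to 51.2%) for the deep ones, with an odds ratio of 1.21 (adjusted exact p = 0.494). A further 104 members were in the list of replicate 1 alone and 162 in that of replicate 2 alone. In neither thresholded list were 226. The samples' ranked lists, which hold weaker peaks too, both overlapped 979 of the 991 members. The conservative list was itself derived from both samples, so this overlap is no separate check of the members. The share over all conservative peaks is not given here. These tests count peaks, which are not replicates, so their p-values and intervals cover counting error only.

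Members called in both samples were mostly the higher ones. Over 4 equal groups of members from low to high pooled signal, the share in both lists went from 4.03% to 20.6%, 79.8% and 97.2%. The pooled signal and the own lists come from the same 2 samples, so a rise of this kind is built in. No such shares over all conservative peaks are given beside it. The pooled signal had a median of 95.2 and quartiles of 68.5 and 145, against medians of 94.8 in the nearer and 91.2 in the deep class. Of the members, 21.4% were among the highest 25% of all conservative peaks, compared with 26.5% of the nearer intronic peaks (odds ratio 0.755, Fisher's exact test, adjusted exact p = 0.097) and 20.1% of the deep ones (adjusted exact p = 1.0). In the ranked lists of the samples, which hold weaker peaks too, 985 members overlapped a peak in replicate 1 and 985 in replicate 2, and so had a signal value there. Replicate 1 signals ran from 23.2 to 515 with a median of 43.8, and replicate 2 signals from 24.4 to 661 with a median of 51.96. Over the 979 members with both values, Spearman's rank correlation across peaks was 0.754, and the median ratio of replicate 2 to replicate 1 was 1.20, where it was 1.19 over all conservative peaks. No source used here says whether both samples share 1 signal scale.

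**Figure D1:**
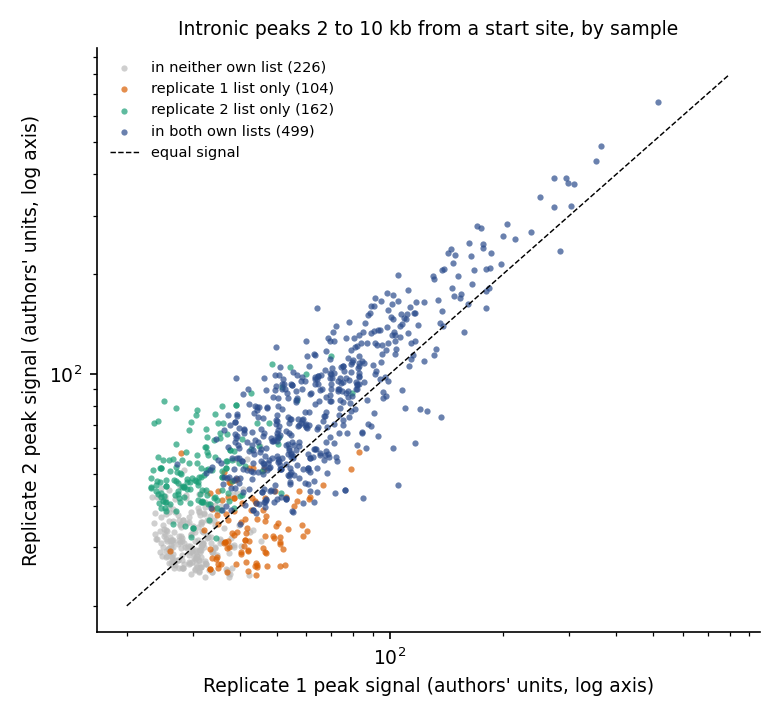
Signal of each member in replicate 1 (horizontal, log axis) and replicate 2 (vertical, log axis), in the authors' units, for the 979 members with both values; the legend counts cover all 991, and colour gives the own thresholded lists that overlap the member. Points of members in both lists (499) reach up to Tlk at 515 and 661, while those in neither (226) sit at the low end, and most points lie above the dashed line of equal signal.

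A small group of members stood apart in height. The pooled signal was under 20 in 23 members, at most 14.9, while the next value was 20.9. Of these 23, 21 overlapped a stronger conservative peak, and their summits had a mean G+C content of 46.5%. Where members overlapped each other, as 28 pairs of neighbours did, the sample value belongs to the stronger ranked peak there and was shared.

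Members thinned out with distance from a start site. Between 2 and 3 kb there were 247 members, or 46.2 per Mb of intronic sequence at that distance, and between 9 and 10 kb there were 50, or 30.7 per Mb. Uncalled candidates, which are summits of the series-level ranked lists that overlap no thresholded peak, stood at 1001 per Mb in the nearest kilobase and 977 in the farthest. Over all arms 4.34% of ranked summits were conservative peaks. The share was 4.01% (Wilson 95% interval 3.78 to 4.27%) for the members' class, between 6.83% (6.39 to 7.28%) for the nearer class and 2.55% (2.28 to 2.84%) for the deep class. The density fell from 73.2 to 40.8 and 17.1 peaks per Mb over the nearer, middle and deep classes. Each replicate's own list gave the same order, with 45.0, 26.1 and 9.63 peaks per Mb in replicate 1 and 52.5, 30.5 and 12.7 in replicate 2. The median signal of the members was 91.3 in the nearest kilobase and 98.2 in the farthest.

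**Figure D2:**
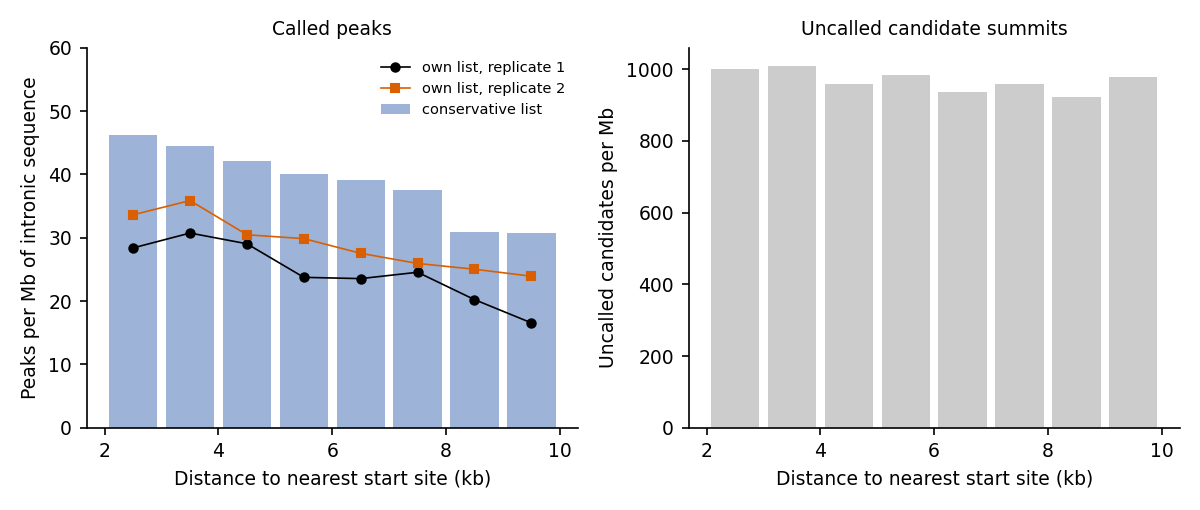
Left, peaks per Mb of intronic sequence against distance to the nearest start site (kb) for the conservative list (bars) and the own thresholded list of each replicate (lines); right, uncalled candidate summits per Mb of the same sequence. Bars fall from 46.2 to 30.7 per Mb from the nearest to the farthest kilobase, while the candidates stand at 1001 and 977 per Mb.

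At the lower limit, the members just inside were at 2002 bp in lncRNA:CR44320 with a signal of 121 and at 2005 bp in CG30089 with 2.71, while the peaks just outside were at 1995 bp in CG6330 with 65.8 and at 1989 bp in CG43658 with 150. At the upper limit, the last members were at 9996 bp in MESR3 with a signal of 106 and at 9975 bp in ush with 174, and the next peaks were at 10002 bp in Efa6 with 180 and at 10009 bp in sdt with 83.9.

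The members' place along their genes differed from that of both neighbouring classes, and so did that of uncalled summits. The summit lay in the intron that follows exon 1 of a host transcript in 604 members (60.9%, Wilson 95% interval 57.9 to 63.9%). This share was 80.2% for the nearer class (odds ratio 0.386, Fisher's exact test, adjusted exact p = 5.95e-18) and 41.1% for the deep class (odds ratio 2.24, adjusted exact p = 1.59e-08). Uncalled candidates, at which no peak was called, showed a like order by distance, with 66.6% in the nearer class, 50.4% at the distance of the members and 32.0% in the deep class. Those were the 2 differences among 26 tests of 13 properties against both classes (7.69%). The classes were cut by distance to a start site, and lying in the intron after exon 1 depends on that distance. These 2 tests therefore cannot be read apart from the rule that set the classes. The share of summits with a G+C content under 35% (64.5% against 61.3% and 65.0%), the share in soft-masked repeats (22.2% against 23.4% and 27.2%) and the shares with the searched words did not pass, with adjusted p from 0.399 upwards. Of all members, 634 lay downstream of the nearest start site and 357 upstream, and for 659 that start site belonged to a host gene. The introns were long, with a median of 12846 bp and quartiles of 6748 and 24928 bp. The distance rule itself favours long introns. No intron lengths or sides of the start site for uncalled candidates are given beside these values.

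X held more members for its intron length than the other large arms. It had 252 members (25.4%) on 20.1% of the eligible intronic sequence, or 51.6 per Mb, while the arms 2L, 2R, 3L and 3R had between 36.6 and 41.5 per Mb. X also held 21.7% of the uncalled candidates of the class and 18.2% of all conservative peaks. The share called in both replicates was 51.98% on X, within the range of 46.1 to 58.3% on those arms. Chromosome 4 had 1 member and Y had none on 0.0831 Mb.

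Summits of members were poor in G and C. The mean G+C content within 50 bp of the summit was 33.6% ± 8.98 (SD over 991 members), compared with 43.8% in windows of equal length 300 bp to each side. The difference was -10.27 ± 12.4 percentage points (SD), and 796 members (80.3%) were below their flanks. Uncalled intronic candidates at the same distances from a start site, not matched by intron or gene, had 43.9% ± 8.48 at the summit. They were 2.63 points above their flanks on average, and 38.2% of them were below. The mean difference was -9.28 in the nearer class, -11.5 in the deep class and -7.71 over all conservative peaks. Among the members it went with height, from -3.90 in the lowest of the 4 groups by signal to -11.1, -11.9 and -14.2 in the groups above.

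**Figure D3:**
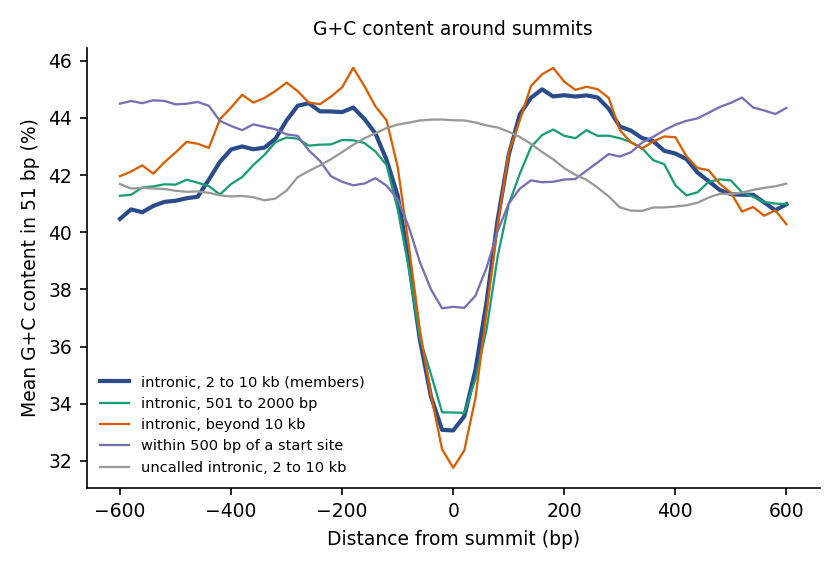
Mean G+C content (%) in windows of 51 bp against distance from the summit (bp) for members, the other intronic classes, promoter peaks within 500 bp of a start site and uncalled intronic candidates. Members fall to 33.1% at the summit and stand at 45.0% 160 bp to its right, promoter peaks fall to 37.4%, and candidates are at 43.9% at the summit with no dip.

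Unbroken A/T runs were frequent at the summits. At least 1 run of 8 or more A or T bases lay within 50 bp of the summit in 737 members (74.4%, Wilson 95% interval 71.6 to 77.0%), with a median longest run of 10 bases. In the windows 300 bp to the right it was 494 of the same 991 (49.8%), and among the uncalled intronic candidates 48.8%, both with a median longest run of 7 bases. The nearer intronic peaks (75.9%), the deep ones (79.3%) and all conservative peaks (70.5%) had shares like that of the members.

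Words of DNA-binding factors were searched on both strands within 50 bp of each summit. Of 30 words, 6 (20%) were more frequent at members than at the 23693 uncalled intronic candidates, and 2 (6.67%) were less frequent (Fisher's exact test with Benjamini-Hochberg adjustment). The most unequal were words of A and T alone. The word TATTTTAA, taken from an earlier analysis of these peaks and so no independent evidence, was at 46 members (4.64%) and 1.11% of candidates, 4.20-fold more (adjusted exact p = 2.15e-13). The control word TTAATATT, which was chosen for its letters and stands for no factor, was at 48 members (4.84%) and 1.14% of candidates, 4.23-fold more (adjusted exact p = 8.50e-14). Only 5 members held both of them, and over all conservative peaks the shares were 5.10% and 3.59%. The windows also differed in base composition (33.6% against 43.9% G+C), and its part in the word counts was not tested.

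The run TTTTTTT, bound by the gap protein Hunchback, was at 13.8% of members and 8.94% of candidates (1.55-fold, adjusted exact p = 8.67e-06). TAATTA, the core of many homeodomain proteins, was at 9.59% and 6.52% (1.47-fold, adjusted exact p = 0.00195). The other words above the candidates hold both kinds of base. TTCNNNGAA, read by the JAK/STAT factor, was at 38 members (3.83%) and 2.25% of candidates (1.71-fold, adjusted exact p = 0.00998), and TGANTCA, read by AP-1, at 36 members (3.63%) and 2.18% (1.66-fold, adjusted exact p = 0.0160). Over all conservative peaks these 4 words were at 12.6%, 9.15%, 2.999% and 2.53%. The words below the candidates were rich in G and C: GGGNNNTCC of Dorsal at 0.706% against 2.73% (adjusted exact p = 8.13e-05) and the proneural E box GCAGCTG at 1.11% against 2.83% (adjusted exact p = 0.00240). With windows of 25 bp to each side, only 2 words were above the candidates, TATTTTAA and TTAATATT, and 0 were below. None of the 6 words in this paragraph passed at that width. A word in a window is a match of letters, and whether its factor was bound there was not measured.

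**Figure D4:**
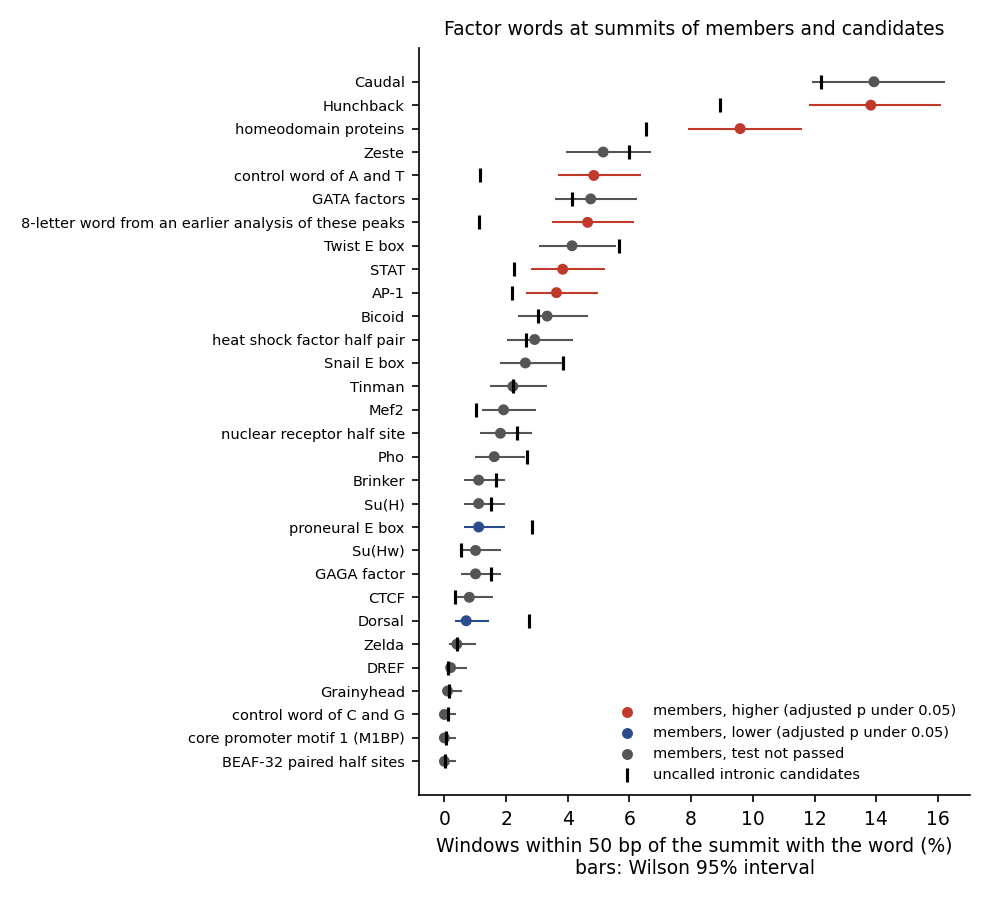
Share of windows from 50 bp before to 50 bp after the summit that hold each of the 30 words (%), for members (points with Wilson 95% intervals, coloured by the Fisher test) and uncalled intronic candidates (black ticks). The words of A and T from the earlier analysis and the control list stand at 4.64% and 4.84% against 1.11% and 1.14%, and the Dorsal word lies below its tick at 0.706% against 2.73%.

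Insulator and promoter words were rare at members. The CTCF word AGNTGGCGC was at 8 members (0.807%) and 0.346% of candidates (2.33-fold, adjusted exact p = 0.0845), the Su(Hw) word GCATACTT at 10 (1.01%) and 0.553% (1.83-fold, adjusted exact p = 0.170; 1.14-fold in the list of replicate 1 alone) and the DREF word TATCGATA at 2 (0.202%) and 0.106% (adjusted exact p = 0.474). Over all conservative peaks the shares of these 3 were 1.21%, 0.793% and 1.15%. No member held the M1BP word, which marks core promoters and was at 0.517% of all conservative peaks. To show what such matches look like, the highest member with the CTCF, DREF or Su(Hw) word on X, 2L, 3L and 3R is printed on the plus strand, with the word or its reverse complement in capitals.
RapGAP1, chr2L:7535043-7535143: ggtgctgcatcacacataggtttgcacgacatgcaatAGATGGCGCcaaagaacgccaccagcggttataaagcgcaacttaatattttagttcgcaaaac
lncRNA:CR44357, chrX:7277228-7277328: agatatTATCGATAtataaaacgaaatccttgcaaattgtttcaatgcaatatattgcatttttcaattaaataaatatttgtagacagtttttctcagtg
ImpL2, chr3L:4230490-4230590: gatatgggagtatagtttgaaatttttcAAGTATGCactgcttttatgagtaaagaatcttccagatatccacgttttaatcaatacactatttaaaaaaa
The CTCF word of RapGAP1, a regulator of the small GTPase Rap1, lay in a window of 45.5% G+C under a peak of signal 181, while the Su(Hw) word of ImpL2, a secreted insulin antagonist, lay in a window of 27.7% under a peak of 299. The DREF word of lncRNA:CR44357 lay near the left edge of its window, under a peak of 107.

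Many members shared a gene, and the hosts were long genes. Of 4341 genes with intronic sequence at the distance of the members (eligible genes), 584 (13.5%) held a member, and of these 566 were protein-coding and 18 were non-coding RNA genes. There were 340 genes with 1 member and 244 with at least 2, which together held 67.4% of all members, and 31 genes had at least 5, of which 15 were on X. Hosts had a median of 11.8 kb of eligible sequence and the other eligible genes 1.02 kb, so a long gene had more places for a member. Among the 1458 genes with at least 5 kb of it, 33.1% held a member. A promoter peak within 500 bp of a start site was present at 271 hosts (46.4%) and at 24.4% of the other eligible genes. A gene counted if any of its start sites had such a peak, and both sets were not matched for length or number of start sites.

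The genes with the most members were kirre and lncRNA:CR44357 with 10 each, lncRNA:CR44999 with 8, and Ptp61F, ush and CG1677 with 7 each. In kirre, whose immunoglobulin protein acts in myoblast fusion, the strongest member had a signal of 163 in replicate 1 and 248 in replicate 2 at chrX:3097106-3097312. Of its other members, the one at chrX:2786705-2786869 reached 88.6 and 153, and it also lay in CG32795, the gene of its nearest start site. The weakest of the rest had a pooled signal of 21.5 and overlapped a neighbour of 118. All 7 members of CG1677 also lay in lncRNA:CR44357, whose annotated span covers that gene, so both counts rest on the same peaks there. The highest of them had 117 in replicate 1 and 153 in replicate 2 at chrX:7293642-7293811. In ush, which encodes a cofactor of GATA factors, the strongest member had 112 and 179 at chr2L:520750-520916, and its member at chr2L:485810-485903 was higher in replicate 1, at 117 against 61.9. In Ptp61F, which dephosphorylates proteins of JAK/STAT signalling, the strongest member had 180 and 207. Members of lncRNA:CR44999 reached 82.8 and 131, and that member also lay in CG12535.

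The receptor tyrosine kinase, Wnt, Hedgehog and Dpp pathways, which pattern the embryo, had members in 50% to 69.2% of their eligible genes, where the share over all eligible genes was 13.5%. Of 13 eligible genes of the EGFR and FGF pathways, 9 held 19 members (69.2%, Wilson 95% interval 42.4 to 87.3%), at 105 per Mb of eligible intron where the density over all eligible genes was 41.0. Beside aos and aop, the adhesion protein and EGF receptor antagonist echinoid (ed) had 60.4 in replicate 1 and 113 in replicate 2. Of 17 Wnt and Hedgehog genes, 10 held 23 members (58.8%, 101 per Mb). They were led by the glypican dlp with 138 and 140, the Wnt antagonist nkd with 89.3 and 133, and the Ryk-type receptor drl with 110 and 78.8. Of 12 Dpp pathway genes, 6 held 16 members (50%, 128 per Mb). The BMP ligand dpp had 124 in replicate 1 and 165 in replicate 2 at chr2L:2433538-2433711, the zinc-finger protein shn, which acts downstream of Dpp, had 91.6 and 169, and the BMP antagonist sog had 82.8 and 106. Of the genes with at least 5 kb of eligible intron, 9 of 10 in the EGFR and FGF list, 9 of 11 in the Wnt and Hedgehog list and 6 of 6 in the Dpp list held a member, where it was 33.1% over all such genes. Of 10 eligible Notch pathway genes 1 was a host (10%, beside the 13.5% over all), the coactivator mam, which had 5 members led by one of 98.1 and 175. Of the 7 Notch genes with at least 5 kb of eligible intron, 1 held a member (14.3%, beside 33.1% over all such genes). The density in the Notch list was 36.3 per Mb, where it was 41.0 over all eligible genes.

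Steroid response, adhesion and Hippo pathway genes had densities between 54.2 and 73.9 per Mb. Over all eligible genes 13.5% held a member, at 41.0 per Mb. Among genes with at least 5 kb of eligible intron, 53.8% of the steroid, 55.2% of the adhesion and 53.8% of the Hippo list held one. The share over all such genes was 33.1%. Of 14 ecdysone response genes, 7 held 26 members (73.9 per Mb), and beside Hr3 and Hr4 the cyclin-dependent kinase Eip63E had 143 in replicate 1 and 231 in replicate 2. Among 35 genes of axon guidance and cell adhesion, 17 held 51 members (54.2 per Mb), led by Sema1a with 177 and 240, kirre, and the integrin subunit mew with 117 and 126. Of 20 genes of Hippo, polarity and insulin signalling, 7 held 14 members (63.8 per Mb). There ex had 155 and 175, the kinase wts 68.4 and 57.4, and kibra 43.7 and 76.2.

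Transcription and chromatin regulators had densities on both sides of 41.0 per Mb, the value over all eligible genes, of which 13.5% held a member. Among genes with at least 5 kb of eligible intron, the share was 33.1% over all such genes. It was 44.4% for the Hox, 57.1% for the Polycomb and Trithorax, 35.7% for the neural and 50% for the segmentation list. Of 10 Hox genes and cofactors, 4 held 13 members (77.2 per Mb), with 73.2 in replicate 1 and 89.8 in replicate 2 in Antp, 43.2 and 50.5 in lab, and 37.4 and 48.8 in Abd-B. Of 21 Polycomb and Trithorax genes, 5 held 8 members (85.9 per Mb), led by Psc with 130 and 198, trx with 119 and 141, and ph-p with 52.3 and 93.0. Of 16 neural and glial transcription factor genes, 5 held 8 members (39.5 per Mb), with 197 and 215 in grh, 51.1 and 51.5 in pros, and 35.9 and 48.9 in Lim1. Of 6 eligible segmentation genes 2 held a member each (33.3%, 52.6 per Mb), cad with 46.5 and 56.4 and cnc with 27.8 and 34.5, and the cnc member was in neither sample's own list. Among 7 genes of the architectural protein list with eligible intron, JIL-1 alone held members (14.3%, beside 13.5% over all eligible genes). The median eligible intron in that list was 0.241 kb, and 1 gene had at least 5 kb.

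Lists of RNA-binding, synaptic, epidermal and muscle genes ranged from 18.9 to 52.8 members per Mb. Over all eligible genes 13.5% held a member, at 41.0 per Mb. Among all genes with at least 5 kb of eligible intron the share was 33.1%. It was 35.3% for such RNA-binding genes, 28.6% for ion channels and synapses, 37.5% for epidermis and trachea, and 42.9% for muscle and heart. Of 30 genes of ion channels and synapses, 8 held 10 members (26.7%, 18.9 per Mb), but the share was 10% in the list of replicate 1 alone and 16.7% in that of replicate 2 alone. The phosphodiesterase dnc had 102 in replicate 1 and 146 in replicate 2, the kinase anchor rg 75.2 and 72.5, and the channel gene Ih 57.5 and 60.7. Of 23 RNA-binding regulators, 6 held 16 members (23.6 per Mb), led by shep with 180 and 178, Rbfox1 with 85.8 and 143 and fne with 63.4 and 114. Of 13 epidermis and trachea genes, 4 held 4 members (26.3 per Mb), with 151 and 197 in rib, 66.7 and 55.0 in sim, and 60.8 and 46.7 in trh. Of 21 muscle and heart genes, 6 held 13 members (52.8 per Mb), with 74.7 and 88.8 in Pdp1, 69.4 and 86.7 in how, and 58.4 and 89.8 in Mef2. The lists and their members were drawn up with earlier results of these peaks known, so their shares are descriptions with no test.

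**Figure D5:**
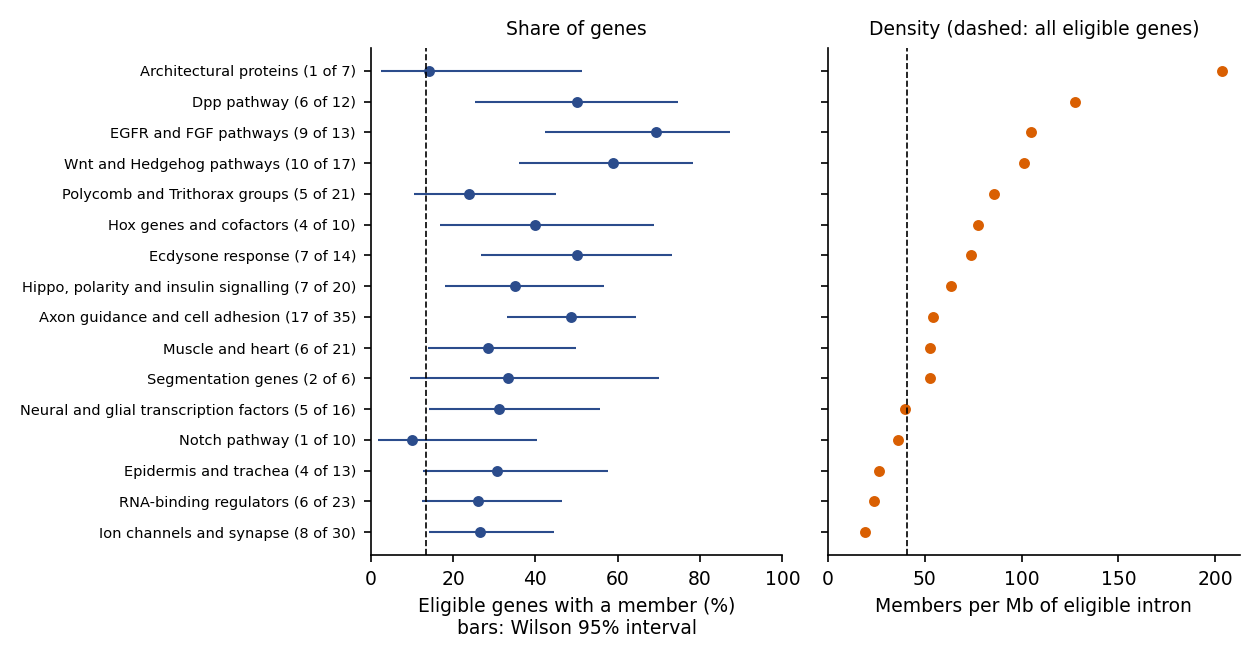
Left, percent of the eligible genes of each list that hold a member, with Wilson 95% intervals and the counts beside the names; right, members per Mb of eligible intron; dashed lines mark all eligible genes (13.5% and 41.0 per Mb). The Dpp, EGFR and FGF, and Wnt and Hedgehog lists stand at 128, 105 and 101 per Mb, ion channels and synapse at 18.9, and the architectural proteins' point rests on 2 members of JIL-1.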

How the data were processed

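The ChIP-seq peak lists of both replicates were used as deposited. Per the deposited listings, the authors made irreproducible discovery rate (IDR) ranked and thresholded lists on dm6 from each sample and from both, with a control alignment; no source used here names the aligner or peak caller. The deposited signal is the authors' peak height. The deposited score rises as the IDR falls and was at least 830 in every thresholded list. Per the labels, chromatin was sheared by sonication to 200 to 800 bp.

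Start sites and introns came from Ensembl release 115 (18277 genes, 23694 start sites, transposable elements left out), and bases from the soft-masked RefSeq assembly. Of the conservative peaks, 5 on unplaced scaffolds were not used. A member was called in a sample when it overlapped that sample's thresholded list by at least 1 bp; a sample's value is the highest overlapping peak of its ranked list. Counts were compared by two-sided Fisher's exact tests, Benjamini-Hochberg adjusted within each family (30 words; 26 neighbour tests), using Python 3.11.15, numpy 2.4.6, pandas 2.3.3 and scipy 1.17.1; functions were tested on simulated data. The genes named are the hosts of the 25 highest members called in both samples, the 6 genes with most members, up to 3 hosts per gene list and those at the distance limits. Of 375 list symbols, 7 had no match in the annotation, and the result of 1 list is not reported here. The members, lists, words and tests were chosen with earlier results of these data known. Alternatives used the second series-level list, the strongest 50% of the peaks, each sample's own list, other windows, overlaps, distances and backgrounds.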

Additional observations from a re-analysis of the deposited data

How the results depend on the processing

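The number of members was 502 in the strongest 50% of the conservative peaks, 586 when the upper limit was 5000 bp, and 633 to 740 in the list of 1 replicate alone, 633 being the list of replicate 1. The percent of members called in both samples was 88.2 in the strongest 50% and 40.8 where at least 50% of both peaks had to overlap. Words above the candidates numbered 2 with windows of 25 bp to each side and 3 against the flanking windows. The 2 were TATTTTAA and TTAATATT, which were also among the 3, so no word named for a factor passed with 25 bp. Words below the candidates numbered 0 with 25 bp and 4 each with 100 bp, with the other series-level list and with the strongest 25% of the candidates. The percent of eligible genes with a member was 8.13 in the strongest 50% and 9.51 to 10.9 without a replicate. The CTCF word passed in the list of replicate 1 alone (3.20-fold, adjusted exact p = 0.0367) and in no other alternative. The Su(Hw) word went from 1.83-fold to 1.14-fold in the list of replicate 1 alone and passed in none. The odds ratio of the share in both samples against the nearer class, 1.01, fell on the other side of 1 with the second series-level list (0.962), the strongest 50% (0.941), transposable elements kept (0.985), the 50% overlap (0.983) and a pooled signal of at least 20 (0.986), and passed the test nowhere. Against the deep class it stayed above 1 and passed nowhere. The A/T words and the mean G+C difference kept their direction, and the A/T words their side of the threshold, in every alternative run for them. Host shares of small lists moved by over 1.5 times: ion channels and synapse from 26.7% to between 10 and 16.7% in 1 replicate's list alone and 10% in the strongest 50%, neural and glial factors from 31.2 to 18.8% without replicate 1 and 12.5% in the strongest 50%, segmentation from 33.3 to 16.7% without replicate 2 and in the strongest 50%, and, there too, Hox from 40 to 20% and Hippo from 35 to 20%. Leaving out the 23 members with a pooled signal under 20, an alternative chosen after seeing the data, left 968 members, 50.8% of them in both samples, and a G+C difference of -10.6 points. The causes of these changes were not tested. No paired analysis was possible because both samples form 1 group. Depth is unknown, so an absent peak may lie under what the reads could show.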
